A study of Mus musculus with 6 samples.

Results

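The genes described here make, break down or relay cyclic AMP (cAMP). They are adenylyl cyclases, cyclic nucleotide phosphodiesterases, A-kinase anchoring proteins and the subunits of kinase A, taken as every probe set that names exactly 1 gene whose symbol is Adcy, Pde or Akap followed by a digit, or starts with Prkar or Prkac. This rule found 57 of the 18193 genes named by the arrays, through 148 of 45037 probe sets, and used no measured value. Messenger RNA bound to tagged ribosomes was pulled from the cortex of untreated transgenic mice of 2 lines and hybridised to arrays, with 3 biological replicates a line. In the S100a10 line (ES691) the control regions of S100a10, carried on a bacterial artificial chromosome, place the tag, and in the Glt25d2 line (DU9) those of Glt25d2, a collagen galactosyltransferase gene now called Colgalt2. Both lines had been crossed for 3 to 5 generations from FVB toward C57BL/6. Ages are not given in the sources used here, nor whether a replicate is 1 animal. The study compares the lines as 2 kinds of cortical pyramidal cell, and the series text warns that the S100a10 transgene also marks some cells that are not neurons.

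In neurons, receptors coupled to the stimulatory G protein switch on adenylyl cyclases at the cell membrane, which make cAMP from ATP. The second messenger releases the catalytic subunits of kinase A from their regulatory subunits, and the freed kinase phosphorylates channels, receptors and the transcription factor CREB. Anchoring proteins hold kinase A close to its targets, and phosphodiesterases end the signal by cutting cAMP, its relative cyclic GMP (cGMP), or both. In cortical pyramidal cells the pathway is known for tuning excitability and synaptic strength under dopamine, noradrenaline and serotonin.

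CREB binds the cAMP response element, TGACGTCA, and less tightly its core, TGACG. The 250 bases before each RefSeq start site (GRCm38.p6) were searched on both strands for each, in the 46 of 57 member genes that the promoter table holds. The windows below are shown because kinase A, at the centre of the pathway, and members with differences described further on have such letters before their own start sites. Capitals mark the match, and each whole element also contains the core.
Prkar1a, chr11:109650889-109650918, plus strand: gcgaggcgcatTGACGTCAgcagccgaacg
Prkar1b, chr5:139150035-139150061, minus strand: agagggcggagTGACGggcaggaggac
Prkaca, chr8:83972847-83972873, plus strand: tctgcaactcgCGTCActcatccagga
Prkacb, chr3:146813033-146813059, minus strand: gggcttgaccgCGTCActtccggcgcg
Adcy7, chr8:88282953-88282979, plus strand: gatcatagagcCGTCAggggggtgggg
Pde4a, chr9:21184040-21184066, plus strand: gcacagctcgaCGTCAggctggggagg
Pde4b, chr4:102421510-102421536, plus strand: atttggctgcaCGTCAattttctcatc
The whole element was found for 1 member gene, Prkar1a, where it begins 49 bases before 1 of its start sites. That is 1.12% of 89 member windows, against 1.55% of all 32851 windows of the table. The core was found in 15.7% of member windows and in 17.8% of all windows, and in 6 of the 19 windows of kinase A subunits, which cover 4 of the 6 subunits and in part overlap. A match is a description of these letters, not a bound site.

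The driver genes checked the labels: S100a10 read 13064 to 17898 in S100a10 arrays and 3126 to 3444 in Glt25d2 arrays, and Colgalt2 11.4 to 11.7 and 827 to 1352. All values are intensities on the authors' linear scale, and probe sets were tested where at least 1 group mean reached 50, the limit the series text proposes. The arrays of a line share a scale that differs between the lines: the median probe set read 20.4 to 21.3 in Glt25d2 and 35.5 to 35.8 in S100a10 arrays. The median tested gene therefore differed by 0.56 on the log2 scale (S100a10 minus Glt25d2, as for every difference below), and by -0.02 after quantile normalization, which gives the 6 arrays the same distribution. Part of a deposited difference can come from this scaling, so the value after quantile normalization follows where a gene passed. Pyramidal neuron markers were present in both lines: the 6 measured summed to 9315 to 11632 in Glt25d2 and 15354 to 16028 in S100a10 arrays. The 8 interneuron markers summed to 12720 to 18807 and 17904 to 22913, mostly through Gad1, which did not pass. Npy, Sst and Lhx6 were higher in S100a10 cells (3.46, 2.88 and 2.57, or 2.89, 2.29 and 1.71 after quantile normalization). Pvalb was lower (-2.43, or -2.98), and 4 did not pass. Lhx6 read 42.6 to 60.3 in Glt25d2 arrays, near the limit of 50. The 3 markers of subcerebral projection neurons (Bcl11b, Fezf2 and Crym) summed to 17552 to 19725 in Glt25d2 and 4886 to 6194 in S100a10 arrays. In such bulk samples, fewer cells of a type and less RNA per cell cannot be told apart.

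Of the 148 member probe sets 90, for 45 genes, passed the limit of 50, and 10 of these only through the S100a10 mean. Those 10 were bound to read higher in S100a10 arrays, so their values below are a description and no support for a difference. The 12 genes without a tested probe set were Adcy4 and Adcy10, Akap3, Akap4 and Akap14, and Pde1c, Pde3a, Pde6a, Pde6b, Pde6c, Pde6g and Pde11a. At the edge, an Adcy3 probe set with an S100a10 mean of 50.2 was tested and a Pde7b probe set with 48.0 was not. For each gene, values are those of its tested probe set with the highest mean, and other probe sets are named where they differ.

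The share of members that passed the test was near the share of all tested genes. With limma's test and a Benjamini-Hochberg adjusted p under 0.05, 17 were higher in S100a10 cells and 2 lower, where 44.4% of the 11821 tested genes were higher and 4.5% lower. By probe set, 36 of 90 were higher and 3 lower, where 44.2% and 4.39% of all tested probe sets were. Among the genes' 3 Glt25d2 arrays at least 2 were identical to each other for 7 of the 45, against 22.1% of all genes. Such identical values can understate the spread, here and in the other genes below. The median difference of the members was 0.52, beside 0.56 for all tested genes, and 0.08 after quantile normalization, beside -0.02. After quantile normalization 7 of the 45 were higher and 5 lower (18.4% and 18.4% of all genes), and 12 and 12 probe sets (16.8% and 19.4% of all). After centring each array on its median, 3 genes were higher and 11 lower (16.4% and 31.3% of all genes), and 9 and 22 probe sets (15.8% and 30.3%). With a minimum of 2-fold as deposited, 8 genes were higher and 1 lower (24.1% and 1.04% of all genes), and 15 and 1 probe sets (24.2% and 1.08%). The arrays of the lines did not overlap for 25 of the 45 genes, against 63.8% of all genes. Only the following members passed in the same direction as deposited and after quantile normalization. Adcy5, Adcy7, Akap12, Pde1b, Pde5a, Pde6d and Pde7b were higher in S100a10 cells, and Akap6 and Pde9a were lower. Of all genes, 18.4% passed so as higher and 4.5% as lower. After centring, Adcy5 (1.08), Pde1b (0.29), Pde6d (0.19) and Pde7b (0.14) did not pass. Pde3b passed in opposite directions, higher as deposited and lower after quantile normalization, as 0.524% of all genes did. Without Glt25d2 replicate 1, 13 member genes were higher and 2 lower (37.9% and 3.62% of all genes), and without Glt25d2 replicate 2, 10 and 1 (35.2% and 3.04%). Without S100a10 replicate 1 they were 10 and 1 (35.9% and 3.33%), without S100a10 replicate 2, 9 and 1 (37.9% and 3.57%), and without S100a10 replicate 3, 9 and 1 (37% and 3.08%). Without Glt25d2 replicate 3, 25 genes were higher and 2 lower (55% and 6.11% of all genes), and 51 and 2 probe sets (55.1% and 6.01%). Quantile normalization without that array gave 10 higher and 6 lower (23.7% and 22.9% of all genes), and 15 and 15 probe sets (22.4% and 24%).

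**Figure D1:**
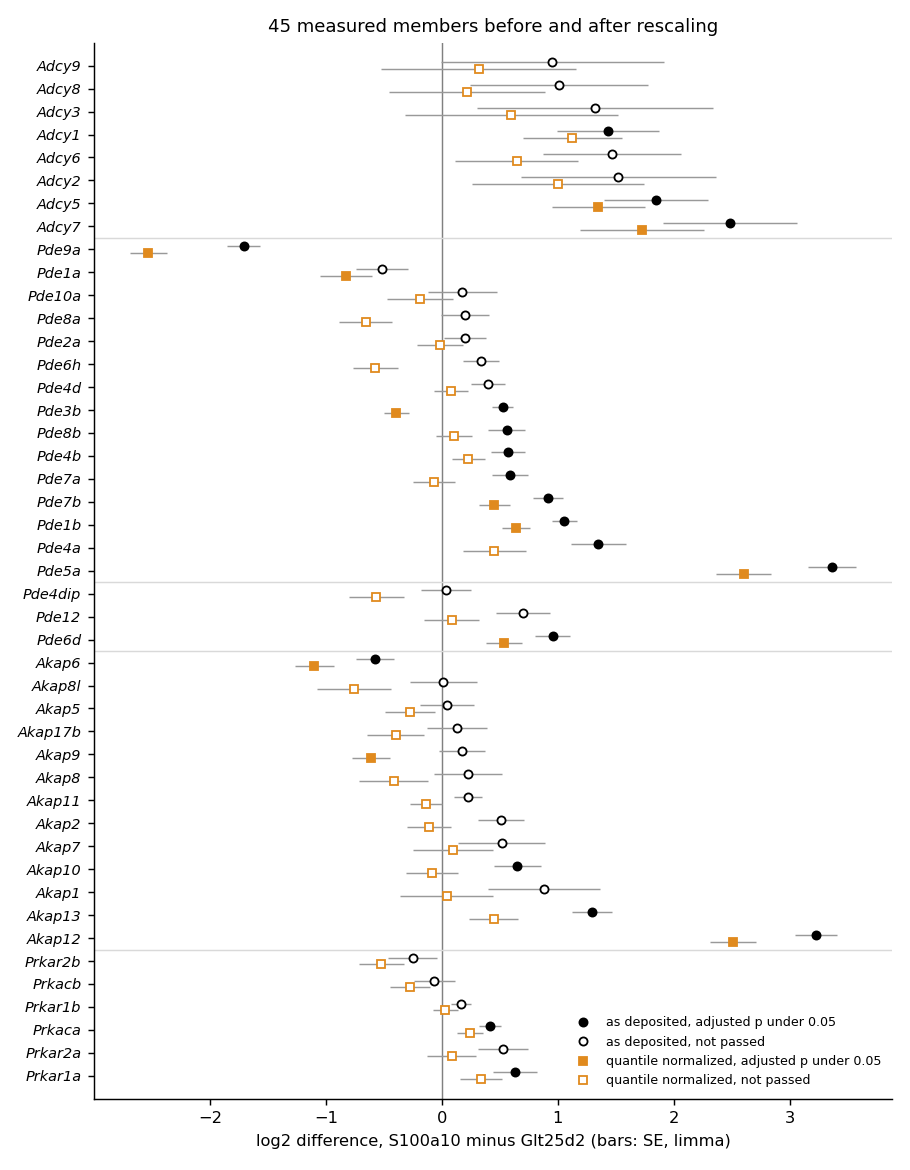
Log2 difference (S100a10 minus Glt25d2, x axis) of the 45 tested members as deposited (circles) and after quantile normalization (squares), grouped from top to bottom as cyclases, phosphodiesterases, other genes named Pde, anchoring proteins and kinase A subunits. Filled symbols passed an adjusted p under 0.05, bars are limma standard errors, and Pde5a, Akap12 and Pde9a stand farthest from 0 on both scales apart from the cyclases, whose bars are long.

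Adenylyl cyclases are enzymes with many membrane spans, and their isoforms differ in what regulates them. Of 8 measured, 3 were higher in S100a10 cells and none lower (percent of all genes as above), with a median of 1.45, or 0.82 after quantile normalization. Adcy7, an isoform known from immune and vascular cells as well as brain, read 98.1, 98.1 and 24.1 in Glt25d2 replicates 1 to 3 and 339, 400 and 299 in S100a10 replicates 1 to 3. No Glt25d2 array reached the S100a10 values. The difference was 2.48 (SE 0.58, limma adjusted p = 0.0157), or 1.73 after quantile normalization (adjusted p = 0.0475). Its second probe set read 15.2 in each Glt25d2 array and 84.2, 86.5 and 90.5 in S100a10 arrays. Its bound, with Glt25d2 arrays set to 50, is at least 1.74-fold, but it was tested only through its S100a10 mean and adds no support. The first probe set did not pass when any single S100a10 array was left out (adjusted p = 0.0527 to 0.0611).

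Adcy5, the main cyclase of striatal neurons and one that calcium inhibits, read 918, 825 and 312 in Glt25d2 and 1809, 2773 and 2188 in S100a10 arrays. Every S100a10 array lay above every Glt25d2 array, at means of 2257 ± 486 and 685 ± 326 (SD, n = 3 each). The difference of 1.85 (SE 0.45, limma adjusted p = 0.0181) was 1.35 after quantile normalization (adjusted p = 0.0436), and a second probe set gave 1.83 and 1.07, past the threshold on both scales. Without S100a10 replicate 2 or 3 the first did not pass (adjusted p = 0.0645 and 0.0689). Adcy1, the calcium- and calmodulin-stimulated cyclase of cortical neurons, read 3849, 3134 and 1237 in Glt25d2 and 5583, 7495 and 7016 in S100a10 arrays, again without overlap. Its difference of 1.43 (SE 0.44, limma adjusted p = 0.0405) became 1.13 after quantile normalization and did not pass there (adjusted p = 0.088), nor without Glt25d2 replicate 2 or any single S100a10 array (adjusted p = 0.0652 to 0.122). A second, dimmer Adcy1 probe set did not pass (1.06, SE 0.49, limma adjusted p = 0.128). It was 0.20 after quantile normalization, and -0.29 with Glt25d2 replicate 3 also left out, again without passing.

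The other 5 cyclases did not pass. Adcy2, stimulated by G protein beta-gamma subunits, differed by 1.52 (SE 0.84). The calcium-inhibited Adcy6 differed by 1.47 (SE 0.59), Adcy3, known from cilia, by 1.32 (SE 1.02), the calcium-stimulated Adcy8 by 1.01 (SE 0.77) and Adcy9, which forskolin hardly activates, by 0.95 (SE 0.96). After quantile normalization these were 1.0, 0.65, 0.60, 0.22 and 0.32 in the same order, and none passed. These errors are wide, and 1 array stood apart in each of the 5. Adcy9 read 1055 and 1008 in Glt25d2 replicates 1 and 2 but 96.8 in replicate 3, beside 740, 1018 and 991 in S100a10 arrays. Adcy2 read 1522, 1277 and 175 in Glt25d2 and 1859, 2182 and 1983 in S100a10 arrays.

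All 8 measured cyclases were low in Glt25d2 replicate 3. That array lay from 2.79-fold (Adcy5) to 12.4-fold (Adcy3) below replicates 1 and 2 on average, and over 2-fold below it for 8 of 8 cyclases, against 14.6% of all tested genes. Of the other 37 members, by their probe set of highest mean, only Akap1, which anchors kinase A at the mitochondrial outer membrane, lay over 2-fold below, at 3.13-fold. A second Akap2 probe set lay 2.88-fold below. The median log2 ratio of replicate 3 to the mean of 1 and 2 was -2.37 for cyclases, 0.15 for phosphodiesterases, 0.46 for anchoring proteins and 0.51 for kinase A subunits, and 0.07 for all tested genes. Markers of several cell types were low in the same array as well, over 2-fold below for 5 of 7 astrocyte, 4 of 8 interneuron, 2 of 6 oligodendrocyte, 2 of 3 endothelial and 1 of 6 pyramidal neuron markers. The astrocyte markers summed to 1240, against 7295 and 9777 in the other Glt25d2 arrays, with Gja1 13.0-fold below while Aldh1l1 and Gfap were not low. The interneuron marker Slc32a1 lay 11.4-fold below and Sst 6.73-fold. Their part in the low cyclase values was not tested. Receptors that act on cyclases were often low there as well, over 2-fold below for 6 of 11 measured ones that raise cAMP and 11 of 14 that lower it. Without this array Adcy1, Adcy2, Adcy5, Adcy6 and Adcy7 were higher in S100a10 cells, by 0.94, 0.52, 1.35, 0.80 and 1.81. Adcy3 and Adcy8 then differed by 0.12 each and Adcy9 by -0.18, and none of the 3 passed. After quantile normalization as well, Adcy1, Adcy5 and Adcy7 were still higher, by 0.63, 0.90 and 1.07, and Adcy9 was lower, by -0.68.

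**Figure D2:**
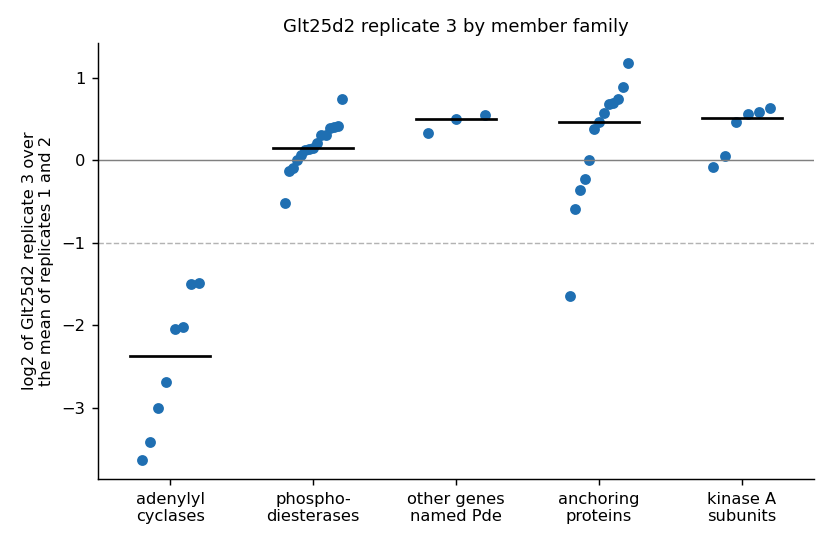
Log2 ratio of Glt25d2 replicate 3 to the mean of Glt25d2 replicates 1 and 2 (y axis) for each of the 45 tested members by family, with black lines at family medians and a dashed line at 2-fold below. The 8 cyclases lie below the dashed line, with a median of -2.37, while kinase A subunits have a median of 0.51.

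The largest differences among the phosphodiesterases were in the enzymes that cut only cGMP, and they ran in opposite directions. Pde5a, the cGMP-specific enzyme of smooth muscle that sildenafil inhibits, read 58.8, 68.3 and 73.6 in Glt25d2 arrays and 789, 794 and 517 in S100a10 arrays. The lowest S100a10 array was thus far above every Glt25d2 array, at means of 700 ± 159 and 66.9 ± 7.47 (SD, n = 3 each). The difference was 3.37 (SE 0.21, limma adjusted p = 1.07e-04), or 2.60 after quantile normalization (adjusted p = 6.18e-04). A second probe set read 27.5, 37.8 and 48.7 against 524, 486 and 350, a bound of at least 8.94-fold, but it and the third were tested only through their S100a10 means and add no support. Pde9a, which has a high affinity for cGMP and is found in neurons, was the only phosphodiesterase lower in S100a10 cells. It read 211 in all 3 Glt25d2 arrays and 53.4, 69.2 and 72.3 in S100a10 arrays, with a difference of -1.71 (SE 0.14, limma adjusted p = 3.12e-04). After quantile normalization it was -2.53 (adjusted p = 1.32e-04). The identical Glt25d2 values understate its spread. Both genes passed in each single-array exclusion, at 3.26 to 3.57 for Pde5a and -1.79 to -1.57 for Pde9a. For Pde9a, leaving out a Glt25d2 array could not change the difference, as its Glt25d2 values are identical.

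Among the 3 enzymes of the Pde1 family and Pde2a, which cut both nucleotides, Pde1b, the calmodulin-activated enzyme abundant in striatum, read 1073, 1073 and 1194 in Glt25d2 and 2495, 2347 and 2116 in S100a10 arrays. The lines did not overlap, and the difference was 1.06 (SE 0.11, limma adjusted p = 7.6e-04), or 0.64 after quantile normalization (adjusted p = 0.00966). Its relative Pde1a pointed the other way, at 4042, 3847 and 4337 in Glt25d2 and 3641, 2070 and 3068 in S100a10 arrays. Pde1a did not pass as deposited (-0.51, SE 0.22, limma adjusted p = 0.106) and passed after quantile normalization (-0.82, adjusted p = 0.0317). The third family member, Pde1c, stayed under 50 in both lines. Pde2a, which cGMP stimulates, read 6154 to 9285 in Glt25d2 and 8173 to 9728 in S100a10 arrays, overlapping, with a difference of 0.20 (SE 0.18), or -0.01 after quantile normalization. Pde10a, a dual enzyme best known from striatal neurons, also overlapped, at 1530 to 3036 and 1939 to 3036, with 0.18 (SE 0.30), or -0.19. A second Pde2a probe set and a second Pde10a probe set passed upward, by 1.20 and 0.79, and neither passed after quantile normalization (0.28 and -0.06). That Pde2a probe set was tested only through its S100a10 mean and adds no support.

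Of 15 measured phosphodiesterases, counting the subunit Pde6h, 8 were higher in S100a10 cells and 1 lower, where 44.4% and 4.5% of all genes were. Their median difference was 0.52, beside 0.56 for all tested genes, and -0.01 after quantile normalization. Among enzymes selective for cAMP, several differences lay close to the median tested gene, and most calls ended on rescaling. Pde7b read 818, 1019 and 1002 in Glt25d2 and 1930, 1686 and 1711 in S100a10 arrays, a difference of 0.91 (SE 0.13, limma adjusted p = 0.0025) that was 0.45 after quantile normalization (adjusted p = 0.0417). Its second probe set, tested only through its S100a10 mean, read 28.6 in each Glt25d2 array and 85.0 to 93.7 in S100a10 arrays and adds no support. Pde4a, of the rolipram-sensitive Pde4 family, read 70.9, 64.6 and 70.9 in Glt25d2 and 162, 134 and 247 in S100a10 arrays, and differed by 1.35 (SE 0.24, limma adjusted p = 0.0055), or 0.45 after quantile normalization, where it did not pass (adjusted p = 0.239). Pde4b, whose messenger is inducible by cAMP, read 1855, 2057 and 2577 in Glt25d2 and 3345, 3064 and 3143 in S100a10 arrays. It differed by 0.57 (SE 0.15, limma adjusted p = 0.0225), close to the median gene, and by 0.23 after quantile normalization.

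Pde7a read 306, 324 and 419 in Glt25d2 and 491, 579 and 496 in S100a10 arrays, without overlap, and differed by 0.59 (SE 0.16, limma adjusted p = 0.0255). That difference was -0.07 after quantile normalization. Pde8b, whose family has an especially high affinity for cAMP, read 986, 1157 and 1414 against 1805, 1625 and 1757. It differed by 0.56 (SE 0.16, limma adjusted p = 0.0293), or 0.11 after quantile normalization. Pde4b, Pde7a and Pde8b each stopped passing when any 1 array other than Glt25d2 replicate 3 was left out (adjusted p = 0.0535 to 0.0907). Pde3b, which cGMP inhibits and insulin activates, read 79.9 to 87.4 in Glt25d2 and 121 to 123 in S100a10 arrays. Its difference of 0.52 (SE 0.09, limma adjusted p = 0.00538) turned to -0.39 after quantile normalization (adjusted p = 0.037). Pde4d, another cAMP-specific enzyme, overlapped at 2340 to 3017 in Glt25d2 and 3010 to 3816 in S100a10 arrays and did not pass. Pde8a, at 125 to 152 and 133 to 209, and the cone photoreceptor subunit Pde6h, at 37.0 to 48.1 and 45.2 to 57.7, did not pass either.

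The 3 other genes with a Pde symbol do not themselves cut cyclic nucleotides. Pde6d, a carrier of prenylated proteins first found with the retinal enzyme, read 1066, 942 and 1264 in Glt25d2 and 2229, 1868 and 2233 in S100a10 arrays. It differed by 0.96 (SE 0.15, limma adjusted p = 0.0036), or 0.54 after quantile normalization (adjusted p = 0.0378). Pde4dip, a centrosome and Golgi scaffold, overlapped at 485 to 705 and 462 to 696. Its second probe set did not pass (0.67, SE 0.26). A dimmer Pde4dip probe set passed as higher (0.88, SE 0.25, limma adjusted p = 0.0329) and not after quantile normalization (-0.06). It was tested only through its S100a10 mean and adds no support. Pde12, a mitochondrial enzyme that trims RNA tails, had probe sets that pointed apart. The first read 280, 416 and 510 against 659, 587 and 656 and did not pass, while another was lower in S100a10 cells, at 189, 208 and 259 against 161, 162 and 129 (-0.53, SE 0.17, limma adjusted p = 0.0429; -1.34 after quantile normalization).

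Of 13 measured anchoring proteins 3 were higher in S100a10 cells, 1 was lower and 9 did not pass, against 44.4% higher and 4.5% lower among all genes, with a median difference of 0.23, or -0.13 after quantile normalization. Akap12 (gravin), which binds kinase A, protein kinase C and the beta-adrenergic receptor at the membrane, read 91.2 in each Glt25d2 array and 1022, 928 and 659 in S100a10 arrays. The S100a10 values were all several times higher, and the difference was 3.23 (SE 0.18, limma adjusted p = 7.78e-05), or 2.51 after quantile normalization (adjusted p = 3.51e-04). The identical Glt25d2 values again understate the spread. Akap6, a large anchor of the nuclear envelope and sarcoplasmic reticulum in muscle that is also made in brain, was lower, at 931, 973 and 1308 in Glt25d2 and 699, 786 and 652 in S100a10 arrays. Its difference of -0.58 (SE 0.17, limma adjusted p = 0.0333) was -1.10 after quantile normalization (adjusted p = 0.00447). It did not pass without Glt25d2 replicate 2 or without any single S100a10 array (adjusted p = 0.0528 to 0.104).

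Akap13, which is also an exchange factor for the GTPase RhoA, read 83.7, 92.2 and 114 in Glt25d2 and 278, 222 and 211 in S100a10 arrays. It differed by 1.29 (SE 0.17, limma adjusted p = 0.00189), or 0.45 after quantile normalization, where it did not pass (adjusted p = 0.148). Akap10, a dual-specificity anchor, read 164, 190 and 264 against 353, 293 and 309. Its difference of 0.65 (SE 0.20, limma adjusted p = 0.0401) turned to -0.09 after quantile normalization. Leaving out any 1 array other than Glt25d2 replicate 3 ended the call (adjusted p = 0.078 to 0.126). Akap5, the postsynaptic anchor that ties kinase A to AMPA receptors and calcium channels, read 2357, 2952 and 4303 in Glt25d2 and 3301, 2945 and 3398 in S100a10 arrays. Those arrays overlapped fully, and the difference was 0.05 (SE 0.23, limma adjusted p = 0.877), or -0.27 after quantile normalization. Its other probe sets pointed apart. The dimmest passed as higher (0.73, SE 0.19, limma adjusted p = 0.0239) but not after quantile normalization (-0.10), and another did not pass (-0.21, SE 0.46). The other anchors, among them the centrosomal Akap9, the membrane anchor Akap7 and the nuclear Akap8, did not pass as deposited. Akap9 differed by 0.17 (SE 0.20) as deposited and passed as lower after quantile normalization (-0.61, limma adjusted p = 0.0299). Another Akap9 probe set also passed as lower there (-1.23, limma adjusted p = 0.0177), and the dimmest tested one did not (-0.23). A second Akap2 probe set was higher by 1.38 (SE 0.45, limma adjusted p = 0.0474), or 0.55 after quantile normalization, where it did not pass. That probe set is the one low in Glt25d2 replicate 3, at 45.6 beside 133 and 129, and without that array its difference was 0.87.

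Pde5a and Akap12 are also known from vessel-wall and connective tissue cells, and some markers of those cells moved with them and with Adcy7. The 9 measured markers of fibroblasts and meninges were all higher in S100a10 cells, summing to 143 to 282 in Glt25d2 and 28002 to 31608 in S100a10 arrays. Col1a2, Col3a1, Lum, Ogn, Foxd1, Foxc2 and Islr lay under 50 in every Glt25d2 array, and Col1a1 had no tested probe set. Of 5 measured mural cell markers 4 were higher and Rgs5 was lower, and they summed to 623 to 796 and 4244 to 5558. Myl9, Tagln and Pdgfrb lay under 50 in every Glt25d2 array. Endothelial markers pointed the other way: of 3 measured, Esam was lower (-0.97) and Cldn5 (-1.72) and Slc2a1 (-0.59) did not pass, and all 3 were lower without Glt25d2 replicate 3. Of 4 measured microglial markers Tmem119 was higher, at 4.17 in each Glt25d2 array and 167 to 272 in S100a10 arrays, and 3 did not pass. Markers under 50 in every Glt25d2 array, Tmem119 among them, were tested only through their S100a10 means. They were bound to read higher, so their calls add no support. The part of these cell types in the values of Pde5a, Akap12 and Adcy7 was not tested.

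Kinase A subunits differed little between the lines as deposited and after quantile normalization, with median differences of 0.29 and 0.06. Of 6, the catalytic Prkaca and the regulatory Prkar1a were higher in S100a10 cells as deposited and none was lower, where 44.4% of all genes were higher and 4.5% lower. After quantile normalization none of the 6 passed by its probe set of highest mean, and differences ran from -0.52 (Prkar2b) to 0.34 (Prkar1a). Prkaca, the alpha catalytic subunit, read 12667, 11560 and 11460 in Glt25d2 and 15214, 16073 and 16300 in S100a10 arrays, without overlap. Its difference of 0.42 (SE 0.10, limma adjusted p = 0.0151) lay under that of the median gene and was 0.24 after quantile normalization (adjusted p = 0.15). It did not pass without Glt25d2 replicate 2 (adjusted p = 0.065). A second Prkaca probe set passed at 0.65 (SE 0.09, limma adjusted p = 0.00176), but not after quantile normalization (-0.03). Prkacb, the beta catalytic subunit, read 9183, 8479 and 12186 against 10525, 8296 and 9505 and overlapped, at -0.06 (SE 0.18), or -0.27 after quantile normalization. A second Prkacb probe set did not pass as deposited (-0.19, SE 0.16) and passed as lower after quantile normalization (-1.01, limma adjusted p = 0.00746).

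Prkar1a, the regulatory subunit with the whole cAMP response element shown above, had probe sets that disagreed. The first read 2579, 2976 and 4100 in Glt25d2 and 4560, 5148 and 4939 in S100a10 arrays, a difference of 0.63 (SE 0.19, limma adjusted p = 0.0383), or 0.34 after quantile normalization. It passed without Glt25d2 replicate 3, but not without any other single array (adjusted p = 0.0828 to 0.111). A second probe set read 3069, 3022 and 3222 against 2886, 3182 and 2547, at -0.12 (SE 0.12), and passed as lower after quantile normalization (-0.45, adjusted p = 0.0414). Another passed as higher as deposited (0.50, SE 0.14, limma adjusted p = 0.0287) and not after quantile normalization (-0.40), but was tested only through its S100a10 mean. Prkar1b, the neuronal type I regulatory subunit, read 37163, 34955 and 37510 against 40294, 40880 and 41751, at 0.17 (SE 0.09, limma adjusted p = 0.175), or 0.03 after quantile normalization. Of its 4 other probe sets 2 passed, at 0.32 and 0.34, and neither passed after quantile normalization (0.13 and 0.19). The type II subunits, which most anchors bind, did not pass. Prkar2a read 996, 1159 and 1611 against 1783, 2030 and 1530, at 0.52 (SE 0.21), or 0.09 after quantile normalization. Its second probe set passed at 0.58 (SE 0.17) but not after quantile normalization (0.09). Prkar2b, the type II subunit of forebrain neurons, read 4601, 5023 and 7494 against 4688, 4253 and 5179, at -0.25 (SE 0.21), or -0.52. Centring each array on its median places the median tested probe set at -0.21. Prkaca, Prkacb, Prkar1b and Prkar2b then passed as lower in S100a10 cells, where 31.3% of all genes were lower. Prkaca, called higher as deposited, thus passed in the opposite direction there (-0.35, limma adjusted p = 0.0321).

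**Figure D3:**
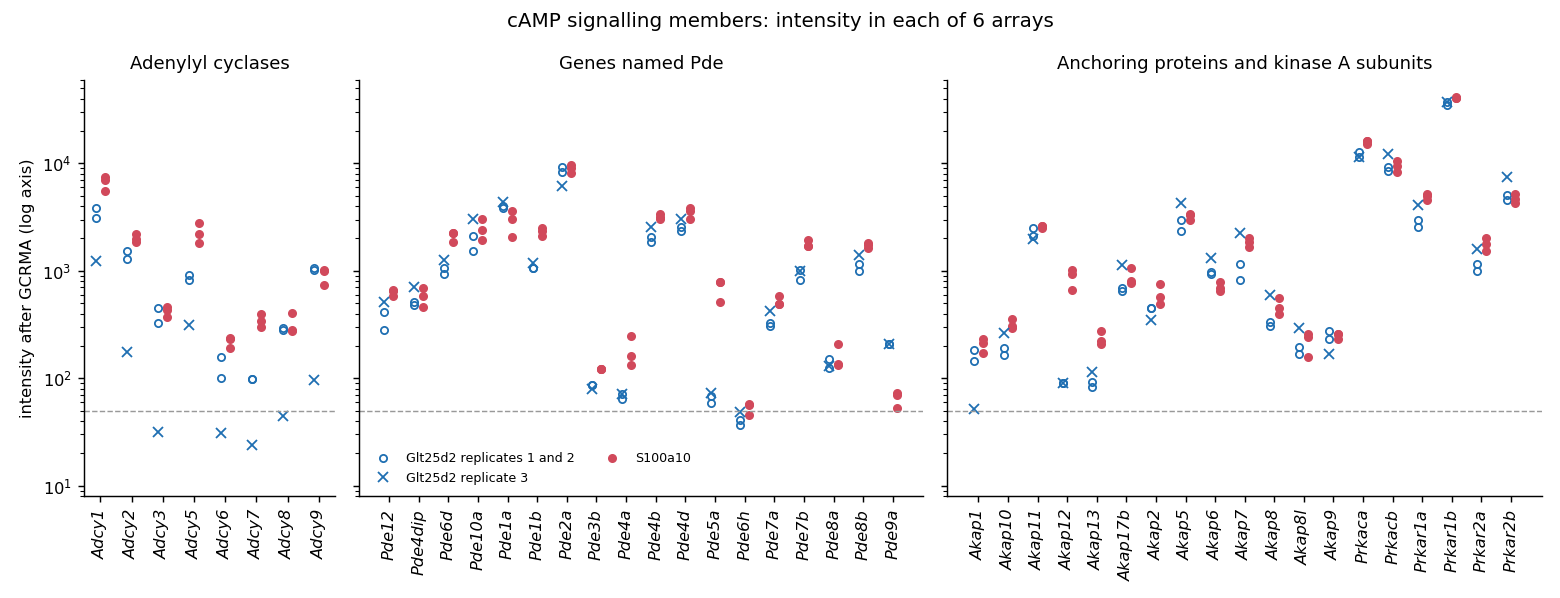
Intensity (y axis, log scale) of each of the 45 tested members in every array, with Glt25d2 replicates 1 and 2 as open circles, Glt25d2 replicate 3 as crosses and S100a10 arrays as filled circles; the dashed line marks 50. The crosses of the cyclases lie below the open circles, and Pde5a, Akap12 and Pde9a show the widest gaps between the lines outside the cyclases.

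Other genes of the pathway were taken from lists made by role, and their counts stand beside 44.4% higher and 4.5% lower among all genes as deposited, and 18.4% each way after quantile normalization. Genes given as a bound were tested only through their S100a10 mean. Of 7 G protein alpha subunits that act on cyclases, 4 were higher in S100a10 cells and 1 lower. Gnai2, an inhibitory subunit, read 1402, 1161 and 966 in Glt25d2 and 3835, 4718 and 3798 in S100a10 arrays (1.82, SE 0.18, limma adjusted p = 5.7e-04; 1.43 after quantile normalization). Gnai1, another inhibitory subunit, was the lower one, at 21439, 21439 and 22441 against 15729, 16638 and 15952 (-0.43, SE 0.09, limma adjusted p = 0.00954; -0.60 after quantile normalization). The stimulatory subunit Gnas differed by 0.29 (SE 0.09, limma adjusted p = 0.0457), less than the median gene, and did not pass after quantile normalization (0.10, adjusted p = 0.52) or without Glt25d2 replicate 3 (adjusted p = 0.0939). Gnal, the stimulatory subunit of striatum and olfactory neurons, overlapped at 990 to 996 and 924 to 1195.

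Of 11 measured receptors that raise cAMP, 5 were higher and 1 was lower. Among the higher ones, Calcrl and Pth1r were tested only through their S100a10 means and add no support. The corticotropin-releasing hormone receptor Crhr1 read 137, 137 and 44.6 in Glt25d2 and 508, 518 and 566 in S100a10 arrays (2.49, SE 0.46, limma adjusted p = 0.00662; 1.74 after quantile normalization). Calcrl, the receptor for calcitonin gene-related peptide and adrenomedullin, was at least 2.63-fold higher, and the prostaglandin E receptor Ptger4 was lower, at -0.74 (SE 0.17, limma adjusted p = 0.0145; -1.61 after quantile normalization). Of 14 measured receptors that lower cAMP 2 were higher, the neuropeptide Y receptor Npy1r at least 1.73-fold and the serotonin receptor Htr1b by 0.71, and 12 did not pass. Htr1b did not pass after quantile normalization (0.02, adjusted p = 0.943). All 3 measured effectors other than kinase A were higher: the exchange factor Rapgef3 (Epac1) by 1.98 (SE 0.24), the channel Hcn3 by 1.20 (SE 0.26) and the channel Hcn2 by 1.08 (SE 0.12). After quantile normalization Rapgef3 alone passed, at 1.25.

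Of 9 inhibitors and substrates of kinase A 3 were higher and 6 did not pass. Ppp1r1a, the phosphatase inhibitor that kinase A switches on, read 699, 579 and 635 in Glt25d2 and 2555, 2507 and 2558 in S100a10 arrays (1.998, SE 0.11, limma adjusted p = 6.54e-05; 1.53 after quantile normalization). Pkib, a peptide inhibitor of the catalytic subunit, read 642, 772 and 1215 against 2559, 2324 and 2344 (1.51, SE 0.25, limma adjusted p = 0.00409; 1.09 after quantile normalization). Its relatives Pkia and Pkig did not pass, at 0.25 and 0.14. Of 7 genes of CREB and its coactivators 5 were higher, led by Crtc3 at 1.59 (SE 0.16) and Ep300 at 1.28 (SE 0.16), which both passed after quantile normalization, at 0.78 and 0.61. Crtc3 read 102 in each Glt25d2 array, and these identical values understate its spread. Crtc2, also among the 5, was tested only through its S100a10 mean and adds no support. Creb1 itself did not pass (0.11, SE 0.21), nor did Crem. Of 10 anchors without an Akap symbol 3 were higher, with Rab32 at least 5.31-fold, and 1 was lower, the dendritic microtubule protein Map2 at -0.74 (SE 0.14, limma adjusted p = 0.00646; -1.09 after quantile normalization).

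The cGMP arm, which shares the dual phosphodiesterases, ran both ways. Of 10 measured genes 3 were higher and 2 lower, with a median difference of -0.19 beside 0.56 for all genes. Both lower genes encode soluble guanylyl cyclase, the nitric oxide receptor that makes cGMP. Gucy1a1 read 2871, 2964 and 4325 in Glt25d2 and 958, 1149 and 1092 in S100a10 arrays (-1.65, SE 0.19, limma adjusted p = 0.00112; -2.06 after quantile normalization). Gucy1b1 read 7208, 9122 and 10187 against 4912, 4438 and 5332 (-0.84, SE 0.16, limma adjusted p = 0.00773; -1.10 after quantile normalization). The lines overlapped for neither gene. Mrvi1, a target of the cGMP-dependent kinase in smooth muscle, read 48.3 to 49.7 in Glt25d2 and 713 to 868 in S100a10 arrays, a bound of at least 15.98-fold. The natriuretic peptide receptor Npr2, itself a guanylyl cyclase, was higher by 2.55 (SE 0.79, limma adjusted p = 0.0404), or 1.84 after quantile normalization without passing (adjusted p = 0.101). It read 20.9 in Glt25d2 replicate 3 beside 173 and 116, and without that array its difference was 1.63. The kinases Prkg1 and Prkg2 did not pass as deposited and were lower after quantile normalization, by -0.85 and -0.99. Of the 10 genes 6 were lower on that scale, against 18.4% of all genes.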

How the data were processed

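The deposited table holds linear intensities that the authors computed with GCRMA (named in the submitters' processing notes). The GCRMA version and a genome build are not given in the sources used here. Per the labels, 15 ng of RNA went through a 2-cycle amplification. The 6 deposited columns were used as separate arrays. Of 45101 probe sets, 64 controls were left out. Genes were named from GEO's platform annotation (34945 probe sets name 1 gene, 932 several, 9160 none), and promoter sequences come from RefSeq (GRCm38.p6).

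On log2 intensities without a pseudocount, limma 3.58.1 (R 4.3.3) was fitted with lmFit and eBayes, 2-sided, over the 21291 probe sets with a group mean of 50 or more, without a block, and p-values were adjusted over all of them (Benjamini-Hochberg, threshold 0.05). A bound divides the geometric mean of the brighter group by 50 where every array of the other group lay under 50. The fit was tested on simulated data. Members, lists and tests were chosen with earlier results of these data known. Named genes are those past the threshold with the largest differences in each family, all kinase A subunits, and other members by count. The other members, and dimmer probe sets, were named after their values were seen. Probe sets ending in _x_at or _s_at, as for Prkaca, Pde5a, Pde2a and Adcy7, may share sequence with other transcripts. Whether replicates come from separate animals is not stated, so p-values measure the spread between these samples. Precision is limited by having 3 arrays a line. Alternatives were other filters, a pseudocount of 16, a floor of 50, rescaling, a trended prior, 1 probe set per gene, a 2-fold minimum, the replicate number as a block and each array left out. Plots were drawn with matplotlib 3.10.9 and tables with pandas 2.3.3, under Python 3.11.15.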

Additional observations from a re-analysis of the deposited data

How the results depend on the processing

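The 45 tested members gave 17 genes higher in S100a10 cells and 2 lower, and 36 and 3 of their 90 probe sets. Rescaling moved these counts most. After quantile normalization 7 genes were higher and 5 lower (12 and 12 probe sets), after centring each array on its median 3 and 11 (9 and 22), and after quantile normalization without Glt25d2 replicate 3, 10 and 6 (15 and 15). Without a filter 63 and 12 member probe sets passed, as all 148 were tested. With a 2-fold minimum 8 genes were higher and 1 lower (15 and 1 probe sets). Leaving out 1 array at a time gave 9 to 25 genes higher and 1 to 2 lower, and 19 to 51 and 1 to 3 probe sets.

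The replicate number as a block gave 10 genes higher and 1 lower, and 1 probe set lower. Deviations of same-numbered arrays correlated at -0.45, 0.22 and -0.24, and those of differently numbered arrays at -0.40 to 0.45. These values show no pairing by number but, with 3 arrays a line, cannot exclude one.

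Of the 45 members, 24 changed sign after centring, 15 after quantile normalization and 16 after quantile normalization without Glt25d2 replicate 3, all to negative. Among the 32 followed gene by gene (those that passed, all cyclases and kinase A subunits, Akap5, Pde1a, Pde2a and Pde10a), these were after centring Akap10 (-0.12), Akap5 (-0.72), Prkaca (-0.35), Prkar1a (-0.14), Prkar1b (-0.60), Prkar2a (-0.24), Pde10a (-0.59), Pde2a (-0.57), Pde3b (-0.24), Pde4b (-0.20), Pde7a (-0.18) and Pde8b (-0.21). After quantile normalization they were Akap10 (-0.086), Akap5 (-0.27), Pde10a (-0.19), Pde2a (-0.014), Pde3b (-0.39) and Pde7a (-0.067), and without Glt25d2 replicate 3 as well Adcy3 (-0.50), Adcy8 (-0.56), Adcy9 (-0.68), Akap5 (-0.061), Pde2a (-0.19) and Pde3b (-0.35). With 1 array left out, 1 to 5 of the 45 changed sign, and of the 32, Adcy9 ranged from -0.18 (without Glt25d2 replicate 3) to 1.54, Akap5 from -0.15 (without Glt25d2 replicate 1) to 0.28, Pde10a from -0.065 (without Glt25d2 replicate 1) to 0.43, and Prkacb from -0.17 to 0.091 (without Glt25d2 replicate 3), with 0.026 without S100a10 replicate 2. Both rescalings move most genes toward Glt25d2 by construction. Akap12, Pde5a and Pde9a kept their direction and passed in all 16 alternative fits, at 2.46 to 3.42, 2.60 to 3.57 and -2.53 to -1.49. Leaving out a Glt25d2 array could not change the difference of Akap12 or Pde9a, whose Glt25d2 values are identical.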
